A study of Mus musculus with 14 samples.

Results

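The 10 genes described here encode the fibrous matrix around pancreatic islets and the contractile, receptor and growth factor genes used to follow stellate cells: Col1a1, Col1a2, Col3a1, Col4a1, Col6a1, Fn1, Pdgfrb, Acta2, Des and Tgfb1. They were taken by symbol from a table of log2 signals on 14 Affymetrix Mouse Gene 1.0 ST arrays of isolated islets, in which 19938 genes could be tested. Each of the 10 was read by a single transcript cluster, the probe group that the array summarises for one gene, so no choice between clusters was needed. The IKK2-CApdx-1 group (n = 5) came from diabetic mice that carry Pdx-1-tTA and express through it a constitutively active form of the kinase IKK2 in β-cells. The Pdx-1+/- group (n = 4) carries the same driver allele, which leaves it haploinsufficient for Pdx-1, without active IKK2, and control mice formed the last group (n = 5). All mice were 11 weeks old, untreated, kept free of specific pathogens and of mixed C57BL/6 and NMRI strain in equal parts. The transgene acts in β-cells, which are not the cells known for making fibrillar collagen, and the IKK2-CApdx-1 mice differ from Pdx-1+/- mice in both active IKK2 and diabetes, whose parts cannot be told apart. Nothing in the labels tells separate mice from repeat preparations, and the p-values below therefore measure the spread between arrays, which may be technical.

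Pancreatic stellate cells are mesenchymal cells that lie beside acini, ducts, vessels and islets. In their quiet state they store vitamin A and contain desmin, and on activation, for which platelet-derived growth factor and transforming growth factor β are the best known signals, they turn on α-smooth muscle actin and lay down fibrillar collagen and fibronectin. The same genes are made by pericytes, vascular smooth muscle cells and fibroblasts, so none of them marks stellate cells alone, and which cells of the preparation made the transcripts was not measured. In whole islets fewer cells of a type and less RNA per cell cannot be told apart.

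Promoter sequence was looked up for the 10 genes. It is printed for Acta2 with Des and for Col1a2 with Col3a1, pairs that moved together across arrays, and for Tgfb1. The windows of Col4a1 and Col6a1, which also moved together, were searched and are not printed. RefSeq's table for GRCm38.p6 held 7 of the 10 genes, and the 250 bases before the annotated start are printed 5′ to 3′ along the gene's own strand. Capitals mark every match, on either strand, to CAGAC (the core that SMAD proteins, which carry the TGF-β signal, are known to bind), to CAGCTG (an E-box) and to GGGCGG (a GC box). Acta2 and Des, whose signals followed each other most closely outside the collagens, stand at chr19:34255374-34255623 on the minus strand and at chr1:75360042-75360291 on the plus strand.
Acta2: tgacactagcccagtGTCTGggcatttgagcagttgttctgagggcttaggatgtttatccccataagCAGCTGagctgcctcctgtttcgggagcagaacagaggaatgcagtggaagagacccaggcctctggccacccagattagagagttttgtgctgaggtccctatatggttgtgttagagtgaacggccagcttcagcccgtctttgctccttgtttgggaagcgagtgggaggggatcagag
Des: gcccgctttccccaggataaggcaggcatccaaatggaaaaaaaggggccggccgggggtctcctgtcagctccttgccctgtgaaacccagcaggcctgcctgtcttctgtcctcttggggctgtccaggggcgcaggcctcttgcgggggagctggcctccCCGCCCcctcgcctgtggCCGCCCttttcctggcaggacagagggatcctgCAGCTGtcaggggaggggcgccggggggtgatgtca
Both windows held CAGCTG, with its first base 182 bases before the start in Acta2 and 36 in Des. That made 2 of the 7 windows searched, and 13% of 32851 promoter windows of the same length held it as well. Des also held GGGCGG in 2 places on its opposite strand.

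Col1a2 and Col3a1 are fibrillar collagen genes that followed each other across arrays, and their windows lie at chr6:4505368-4505617 and chr1:45311288-45311537, both on the plus strand. Tgfb1, the only gene of the 10 whose IKK2-CApdx-1 arrays did not overlap with either other group, lies at chr7:25686752-25687001 on the plus strand.
Col1a2: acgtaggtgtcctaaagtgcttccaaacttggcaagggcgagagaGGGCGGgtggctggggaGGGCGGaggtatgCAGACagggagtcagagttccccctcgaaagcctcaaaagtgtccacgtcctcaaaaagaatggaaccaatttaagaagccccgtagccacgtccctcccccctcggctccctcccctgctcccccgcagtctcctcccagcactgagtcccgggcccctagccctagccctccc
Col3a1: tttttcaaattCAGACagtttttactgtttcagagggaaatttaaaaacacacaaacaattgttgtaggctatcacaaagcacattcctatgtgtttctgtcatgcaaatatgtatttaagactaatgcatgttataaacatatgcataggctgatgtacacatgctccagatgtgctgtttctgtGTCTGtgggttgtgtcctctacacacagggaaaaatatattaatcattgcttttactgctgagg
Tgfb1: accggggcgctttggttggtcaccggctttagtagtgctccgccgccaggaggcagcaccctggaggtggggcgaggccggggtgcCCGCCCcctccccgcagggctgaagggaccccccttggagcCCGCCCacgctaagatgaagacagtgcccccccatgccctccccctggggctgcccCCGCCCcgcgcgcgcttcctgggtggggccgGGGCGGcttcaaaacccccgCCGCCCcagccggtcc
CAGAC was in 3 of the 7 windows searched (Col1a2, Col3a1 and Acta2), against 42.2% of all windows. GGGCGG was in 3 of the 7 (Col1a2, Des and Tgfb1), and 32.7% of all windows held it at least once. It occurred 5 times in Tgfb1 and 2 times in Col1a2. The Tgfb1 window was 75.2% G and C, that of Col1a2 62.0% and that of Col3a1 35.2%, so the collagen pair that moved together differed widely in base composition. Further motifs were searched but not capitalised. TATAAA was found in Col3a1 alone (12.4% of all windows) and a κB motif, GGGRNWYYCC in standard base codes, in Des alone (3.9%). An exact match to CCWWWWWWGG, the strict form of the CArG box, was found in 0 of the 7 windows (1.47% of all windows). The Acta2 window holds ccctatatgg and ccttgtttgg, each with a C or G in the inner stretch. Such looser forms of the box were not searched. Such matches are a description of letters and not of binding.

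The groups differed little for these genes, and 1 of the 10 stood out. Tgfb1 was higher on every IKK2-CApdx-1 array than on any array of the other groups, by about 1.6-fold, without passing the adjusted threshold. The contractile genes Acta2 and Des had positive differences with wide errors. The fibrillar collagens were near 0.2 on the log2 scale or below, and the basement membrane collagen Col4a1, Col6a1 and Fn1 were near 0 against control. With limma, p-values adjusted by Benjamini and Hochberg over all genes and a threshold of 0.05, 0 of the 10 genes were called in any comparison. The share of all genes called was 0.0752% for IKK2-CApdx-1 against Pdx-1+/-, 2.25% for IKK2-CApdx-1 against control and 0.0953% for Pdx-1+/- against control. At an unadjusted p under 0.05, 1 of the 10 (Tgfb1), 1 (Tgfb1) and 0 passed, against 7.02%, 15.7% and 4.71% of all genes.

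A few arrays carry signal of other tissues, and these values matter for every result below. Intestinal genes were high on Pdx-1+/- array 4, where Sis (a brush border disaccharidase) read 9.16 and Fabp2 (an enterocyte fatty-acid carrier) 9.09, and less so on control array 3, at 6.05 and 6.58, against 3.18 to 3.45 and 3.59 to 3.91 on the other 12 arrays. Adipocyte genes were high on IKK2-CApdx-1 array 5, where Adipoq (adiponectin) read 10.60 and Plin1 (a lipid droplet coat protein) 9.34. Array medians over the genes tested lay between 6.45 and 6.55. Every one of the values of the 10 genes was above these medians, the lowest being 6.77 for Des on control array 3, and no detection call was used. The islet hormone genes were bright on every array, with Ins2 (insulin) from 12.31 to 12.62 in IKK2-CApdx-1 islets, 12.60 to 12.64 in Pdx-1+/- islets and 12.60 to 12.68 in control islets, and Gcg (glucagon) from 12.97 to 13.28, 12.88 to 13.24 and 13.12 to 13.36. The highest value of any gene on an array ran from 13.64 to 13.73. Whether signals this bright were compressed was not tested, so these values do not show that hormone expression was equal.

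**Figure D1:**
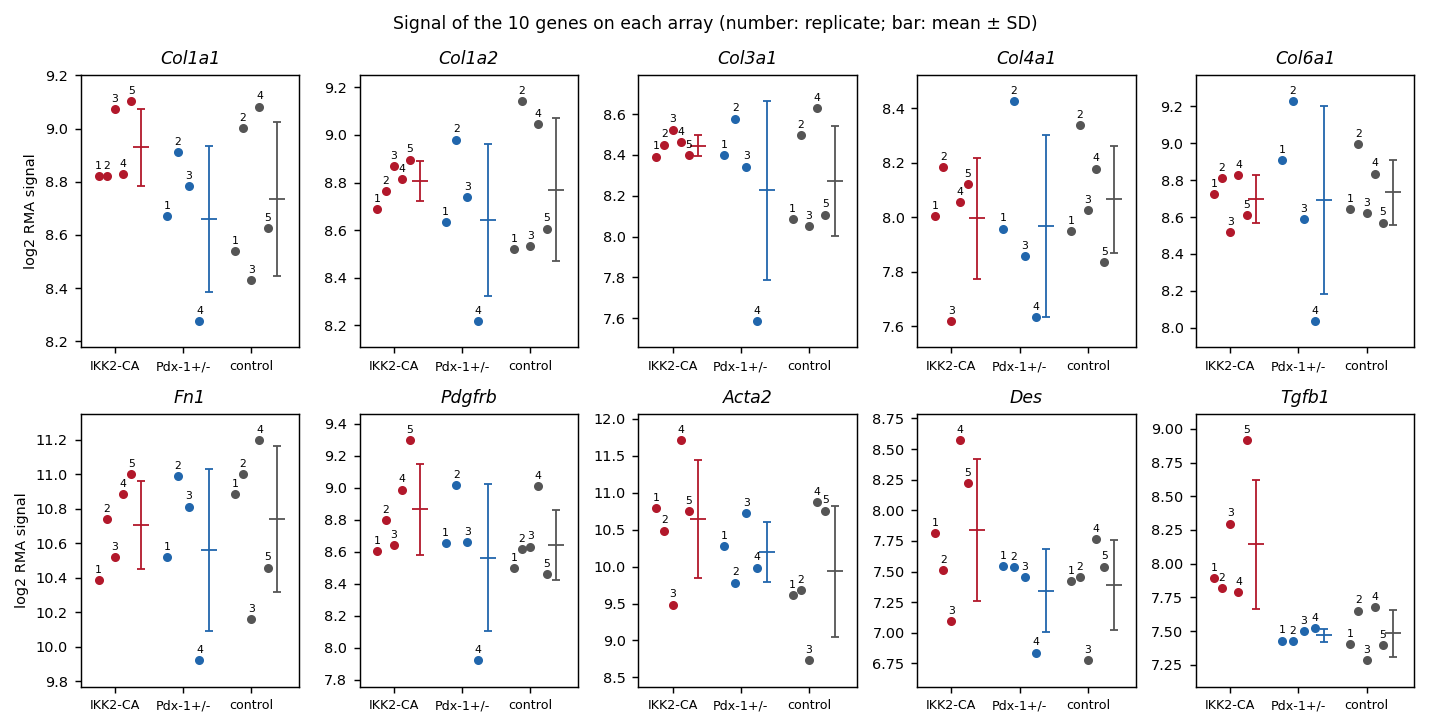
Log2 RMA signal (vertical axes, each gene on its own scale) of the 10 genes on each of the 14 arrays, with the replicate number beside each point and the mean ± SD of the group as a bar; IKK2-CA stands for IKK2-CApdx-1. The 5 IKK2-CApdx-1 arrays sit above all others for Tgfb1, and Pdx-1+/- array 4 is the lowest of the 14 arrays for 6 genes.

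Tgfb1 encodes the secreted growth factor TGF-β1, a strong inducer of collagen synthesis that immune cells also make. Its log2 signal was 7.89, 7.82, 8.30, 7.79 and 8.92 on the IKK2-CApdx-1 arrays, against 7.43, 7.42, 7.50 and 7.52 on the Pdx-1+/- arrays and 7.40, 7.65, 7.28, 7.68 and 7.39 on the control arrays. Arrays 5 and 3 of the IKK2-CApdx-1 group were the highest of all 14, and the lowest of that group, array 4, was still above every array of both other groups. Groups that do not overlap in this direction were found for 1 of the 10 genes against Pdx-1+/- and 1 against control, and for 1.72% and 1.86% of all genes. In the lower direction they were found for 0 of the 10 in each, and for 0.712% and 2.34% of all genes.

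The mean of Tgfb1 was 8.14 ± 0.48 in IKK2-CApdx-1 islets (SD, n = 5), 7.47 ± 0.05 in Pdx-1+/- islets (SD, n = 4) and 7.48 ± 0.17 in control islets (SD, n = 5). Against control, the difference of IKK2-CApdx-1 was 0.66 log2 (SE 0.18, 95% interval 0.28 to 1.04, 1.58-fold; limma adjusted p = 0.0688), which placed the gene at rank 616 of 19938. Against Pdx-1+/-, it was 0.67 log2 (SE 0.19, 95% interval 0.27 to 1.07, 1.60-fold; limma adjusted p = 0.322), at rank 173. Pdx-1+/- and control islets differed by −0.01 log2 (95% interval −0.41 to 0.39; limma adjusted p = 0.999).

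The call for Tgfb1 against control sat close to the threshold. It passed with quantile normalization (0.68 log2, limma adjusted p = 0.0478), with array weights (0.50 log2, adjusted p = 0.0335) and without IKK2-CApdx-1 array 4 (0.75 log2, adjusted p = 0.0319), and over all alternatives the adjusted p ran from 0.0319 to 0.195. IKK2-CApdx-1 array 5, the highest for Tgfb1, is also the array with adipocyte genes, and its mean over 11 macrophage markers was 0.74 above the 14-array mean, the highest of any array. The other 13 ran from −0.45 to 0.21 for those markers. Their part in the Tgfb1 value was not tested. Without that array the difference was 0.47 log2 against control (limma adjusted p = 0.0588) and 0.48 against Pdx-1+/- (adjusted p = 0.195), and the remaining 4 IKK2-CApdx-1 arrays still lay above all others.

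Acta2, the α-smooth muscle actin of activated stellate cells and of vessel walls, varied most of the 10. It read 10.79, 10.49, 9.48, 11.71 and 10.75 on the IKK2-CApdx-1 arrays, 10.27, 9.78, 10.72 and 9.99 on the Pdx-1+/- arrays, and 9.62, 9.69, 8.73, 10.88 and 10.76 on the control arrays. The highest value of the 14 was on IKK2-CApdx-1 array 4 and the lowest on control array 3, a span of 2.98 log2, and the groups overlapped. The within-group SD, 0.75, was larger than that of 99.3% of all genes. Against control the difference of IKK2-CApdx-1 was 0.71 log2 (SE 0.42, 95% interval −0.18 to 1.60; limma adjusted p = 0.464), and against Pdx-1+/- it was 0.45 (SE 0.44, 95% interval −0.49 to 1.40; adjusted p = 0.932). Leaving out control array 3, the one with some intestinal signal, took the difference against control to 0.41, and leaving out IKK2-CApdx-1 array 4 to 0.44, so its size rests in large part on these arrays.

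Des encodes desmin, the intermediate filament of muscle cells and quiet stellate cells. Its signal was 7.81, 7.51, 7.09, 8.57 and 8.22 on the IKK2-CApdx-1 arrays, 7.54, 7.53, 7.46 and 6.84 on the Pdx-1+/- arrays, and 7.42, 7.45, 6.77, 7.76 and 7.54 on the control arrays. IKK2-CApdx-1 arrays 4, 5 and 1 were the highest of the 14, while array 3 of that group lay among the lowest, so the groups overlapped. The differences were 0.50 log2 against Pdx-1+/- (SE 0.27, 95% interval −0.08 to 1.07; limma adjusted p = 0.793) and 0.45 against control (SE 0.25, 95% interval −0.09 to 0.99; adjusted p = 0.435). Without Pdx-1+/- array 4, IKK2-CApdx-1 array 5 and control array 3 they were 0.24 and 0.20, and without IKK2-CApdx-1 array 4 alone the difference against control was 0.27.

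Pdgfrb encodes the receptor through which platelet-derived growth factor drives stellate cells and pericytes to divide and migrate. On the IKK2-CApdx-1 arrays it read 8.60, 8.80, 8.64, 8.99 and 9.30, against 8.65, 9.02, 8.66 and 7.92 on the Pdx-1+/- arrays and 8.5, 8.62, 8.63, 9.01 and 8.46 on the control arrays. Array 5 of the IKK2-CApdx-1 group was the highest and Pdx-1+/- array 4 the lowest of the 14, and values of all groups were intermixed between them. The difference was 0.30 log2 against Pdx-1+/- (SE 0.20; limma adjusted p = 0.865) and 0.22 against control (SE 0.19; adjusted p = 0.647). Without Pdx-1+/- array 4 and IKK2-CApdx-1 array 5, the difference against Pdx-1+/- was −0.02.

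The fibrillar collagen chains came next. Col1a1 and Col1a2 encode the α1 and α2 chains of type I collagen, the main collagen of scars, and Col3a1 the chain of type III collagen, which is laid down early in fibrosis. Col1a1 read 8.82, 8.82, 9.07, 8.83 and 9.10 on the IKK2-CApdx-1 arrays, 8.67, 8.91, 8.79 and 8.28 on the Pdx-1+/- arrays, and 8.54, 9.0, 8.43, 9.08 and 8.63 on the control arrays. The IKK2-CApdx-1 arrays lay close together near the upper end, and control arrays 2 and 4 reached the same level, so the groups overlapped. Its difference was 0.27 log2 against Pdx-1+/- (SE 0.15, 95% interval −0.06 to 0.59; limma adjusted p = 0.820) and 0.19 against control (SE 0.14, 95% interval −0.11 to 0.50; adjusted p = 0.583).

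Col1a2 ran from 8.69 to 8.90 on the IKK2-CApdx-1 arrays, from 8.22 to 8.98 on the Pdx-1+/- arrays and from 8.52 to 9.14 on the control arrays. Its difference against control was 0.04 log2 (95% interval −0.28 to 0.35; limma adjusted p = 0.952) and against Pdx-1+/- 0.16 (95% interval −0.17 to 0.50; adjusted p = 0.930). Col3a1 read 8.39, 8.45, 8.52, 8.46 and 8.40 on the IKK2-CApdx-1 arrays, 8.40, 8.58, 8.34 and 7.59 on the Pdx-1+/- arrays, and 8.08, 8.5, 8.05, 8.63 and 8.11 on the control arrays. The 5 IKK2-CApdx-1 arrays were close together (SD 0.05), and control arrays 1, 3 and 5 lay below all of them while control arrays 2 and 4 did not. The mean difference of Col3a1 was 0.17 log2 against control (95% interval −0.18 to 0.52; limma adjusted p = 0.702) and 0.22 against Pdx-1+/- (95% interval −0.15 to 0.59; adjusted p = 0.900).

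For each of these 3 fibrillar chains the SD was smallest in IKK2-CApdx-1 islets: 0.15, 0.08 and 0.05 for Col1a1, Col1a2 and Col3a1, against 0.28, 0.32 and 0.44 in Pdx-1+/- islets and 0.29, 0.30 and 0.27 in control islets. Col6a1 (0.13) and Fn1 (0.25) also had their smallest SD in IKK2-CApdx-1 islets, while Col4a1, Pdgfrb, Acta2, Des and Tgfb1 did not. Pdx-1+/- array 4, with the intestinal signal, was the lowest of its group for all 3 chains. A difference in spread was not tested. Type I collagen is assembled from both Col1a1 and Col1a2, and Col1a1 minus Col1a2, each as deviation from its 14-array mean, averaged 0.09 ± 0.09 on IKK2-CApdx-1 arrays (SD, n = 5), −0.02 ± 0.06 on Pdx-1+/- arrays (SD, n = 4) and −0.07 ± 0.08 on control arrays (SD, n = 5). The ranges overlapped, from −0.02 to 0.17, from −0.105 to 0.02 and from −0.18 to −0.0016, so the balance of the chains differed by less than 0.2 log2 between group means.

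Col4a1, Col6a1 and Fn1 showed no group pattern. Col4a1 encodes a chain of type IV collagen, the sheet-forming collagen of basement membranes on which β-cells and vessels rest, and ran from 7.62 to 8.19 on the IKK2-CApdx-1 arrays, from 7.63 to 8.43 on the Pdx-1+/- arrays and from 7.83 to 8.34 on the control arrays. Col6a1 encodes a chain of type VI collagen, which forms fine filaments between basement membrane and fibrils, and ran from 8.52 to 8.83, from 8.04 to 9.23 and from 8.57 to 9.0 in the same groups. Fn1, fibronectin, an adhesive glycoprotein on which collagen fibrils assemble, ran from 10.39 to 11.00, from 9.92 to 10.99 and from 10.16 to 11.20.

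The groups overlapped for each of the 3 genes. Against control the differences of IKK2-CApdx-1 were −0.07 log2 for Col4a1 (95% interval −0.38 to 0.25), −0.03 for Col6a1 (−0.40 to 0.33) and −0.03 for Fn1 (−0.50 to 0.43), with limma adjusted p-values of 0.898, 0.961 and 0.972. Against Pdx-1+/- they were 0.03, 0.01 and 0.15, and each turned negative when Pdx-1+/- array 4 was left out. The intervals leave room for changes of about 0.3 to 0.5 log2 in either direction, so a small change was not detectable with these arrays.

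**Figure D2:**
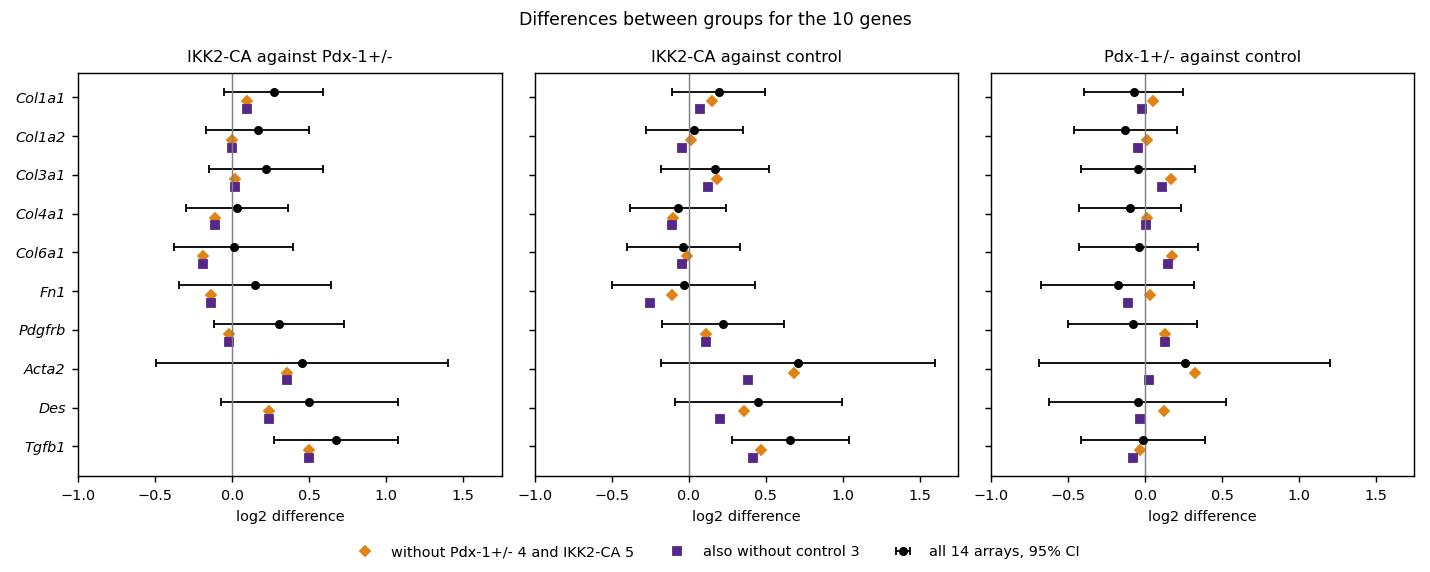
Log2 differences (horizontal axes) of the 10 genes for IKK2-CApdx-1 (IKK2-CA) against Pdx-1+/-, IKK2-CApdx-1 against control and Pdx-1+/- against control; black points are from all 14 arrays with the 95% interval of limma, orange points leave out Pdx-1+/- array 4 and IKK2-CApdx-1 array 5, and purple points also leave out control array 3. Only the intervals of Tgfb1 in the IKK2-CApdx-1 comparisons lie clear of 0, and most differences against Pdx-1+/- move toward or past 0 without the 2 arrays.

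Of the 10 genes, all had positive differences against Pdx-1+/- (median 0.24 log2), against 45.0% of all genes and a median of −0.01. Against control 7 of 10 were positive (median 0.18), against 46.4% of all genes and a median of −0.01. In Pdx-1+/- against control 1 of 10 (Acta2, 0.26 log2) was positive, with a median of −0.06, against 48.2% of all genes and a median of −0.0049. These comparisons share arrays. The 10 genes also share their arrays' composition, so the count of signs is not 10 separate observations.

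The counts of signs against Pdx-1+/- rested on a single array. Pdx-1+/- array 4, with the intestinal signal, was the lowest of its group for 8 of the 10 genes and the lowest of all 14 for 6, and its mean deviation over the 10 genes was −0.55 log2, against −0.05, 0.14 and −5.6e-05 on the other 3 Pdx-1+/- arrays. Without it, 7 of 10 were positive for IKK2-CApdx-1 against Pdx-1+/- (median 0.06), and 9 of 10 for Pdx-1+/- against control (median 0.09). When IKK2-CApdx-1 array 5 was also left out, 6 of 10 were positive against Pdx-1+/- (median 0.0089), and with control array 3 out too, 6, 6 and 5 of 10 were positive in the 3 comparisons (medians 0.0089, 0.09 and −0.0085). Tgfb1 and Acta2 were then the largest differences of the 10 against Pdx-1+/-, at 0.50 and 0.36 log2.

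The spread among arrays was wide. The mean deviation of the 10 genes was 0.06, 0.09, −0.08, 0.35 and 0.39 log2 on the IKK2-CApdx-1 arrays, −0.05, 0.14, −5.6e-05 and −0.55 on the Pdx-1+/- arrays, and −0.19, 0.09, −0.42, 0.28 and −0.11 on the control arrays. Group means were 0.16 ± 0.20 (SD, n = 5), −0.11 ± 0.30 (SD, n = 4) and −0.07 ± 0.27 (SD, n = 5). The ranges of the 3 groups overlapped. Control array 3, the other array with intestinal genes, was the lowest of its group for 6 genes, and control array 4 the highest of its group for 7. Within-group SDs of the 10 genes were high among the 19938 genes, from 0.24 (Col1a1, percentile 76.5) through 0.385 (Fn1, 92.2) and 0.45 (Des, 95.3) to Acta2.

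The 10 genes did not move as a single block. Over the 14 arrays, Pearson's r was 0.92 for Col1a1 with Col1a2, 0.89 for Col1a1 with Col3a1 and 0.90 for Col1a2 with Col3a1, and it was 0.89, 0.89 and 0.82 over the 11 arrays without the 3 that carry other tissue signal. Col4a1 and Col6a1 formed another pair (0.85, and 0.90 over 11 arrays), as did Acta2 and Des (0.83, and 0.84 over 11). Acta2 followed the collagens hardly at all, with r from 0.06 for Col4a1 to 0.31 for Col1a1. Tgfb1 had r of 0.64 with Col1a1, but −0.03 with Col4a1 and −0.12 with Col6a1. Of the 45 pairs, 6 had r over 0.8 and 2 were below 0. These points share libraries, cell composition and group differences, and are given as a description.

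**Figure D3:**
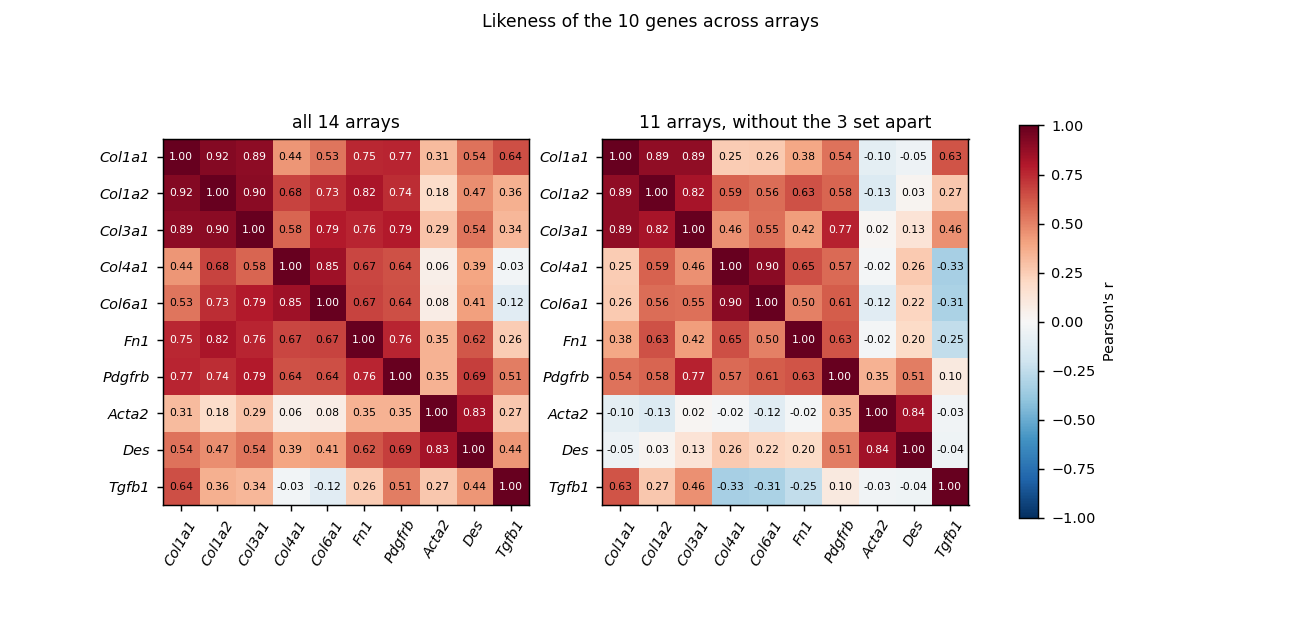
Pearson's r between each pair of the 10 genes over all 14 arrays (left) and over the 11 arrays without Pdx-1+/- array 4, IKK2-CApdx-1 array 5 and control array 3 (right), with colour from −1 to 1. The fibrillar chains, the Col4a1 and Col6a1 pair, and the Acta2 and Des pair keep r of 0.82 or more in both panels, while Acta2 has r of 0.31 or less with each collagen.

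Among all other genes, those most like the mean of the 10 were Olfml2b (r = 0.92), Sparc (0.92), Flna (0.91), Plxna1 (0.90), Itpripl2 (0.90), Peak1 (0.89), Sparcl1 (0.89) and Hes1 (0.88), over 14 arrays. Sparc encodes a collagen-binding matrix protein and Flna the actin crosslinker filamin A. Over the 11 arrays these correlations ran from 0.71 (Peak1) to 0.82 (Olfml2b). Likeness was also taken gene by gene, a choice made after values had been seen. Acta2 was closest to Tagln, which encodes transgelin (r = 0.98), Myh11, the smooth muscle myosin heavy chain (0.98), and Myl9, a myosin light chain (0.97). Col6a1 was closest to Col6a2, its partner chain (0.99), and Col4a1 to Pdgfra, the other PDGF receptor (0.94), and its partner chain Col4a2 (0.93). Pdgfrb was closest to Bgn, the proteoglycan biglycan (0.95). The genes closest to Tgfb1 were Dhx58, a cytoplasmic RNA sensor (0.98), Zbp1, a nucleic acid sensor (0.98), and Tap1, a peptide transporter of antigen presentation (0.98), each with r of 0.96 over 11 arrays.

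Myh11, made by mature smooth muscle, read 9.07, 8.60, 7.83, 10.08 and 9.13 on the IKK2-CApdx-1 arrays, 8.60, 8.12, 9.28 and 8.46 on the Pdx-1+/- arrays, and 7.72, 7.90, 7.30, 9.26 and 8.98 on the control arrays. As with Acta2, IKK2-CApdx-1 array 4 was the highest and control array 3 the lowest. Of 13 smooth muscle contractile genes, all had positive differences against Pdx-1+/- (median 0.19 log2) and against control (median 0.37), and 0 were called. Synpo2, an actin-binding protein of muscle, was at 0.38 log2 against control (SE 0.17; limma adjusted p = 0.287), and Actg2, the enteric smooth muscle actin, at 0.55 (SE 0.25; adjusted p = 0.294). The mean over this list ran from −0.40 to 0.90 on IKK2-CApdx-1 arrays, from −0.31 to 0.27 on Pdx-1+/- arrays and from −0.68 to 0.32 on control arrays, so the groups overlapped. Against control, 12 of 13 were positive without the 3 arrays, with a median of 0.25. Against Pdx-1+/-, 10 of 13 were positive without Pdx-1+/- array 4 (median 0.17) and 10 without the 3 arrays (median 0.17).

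A list of 17 measured pericyte and stellate cell markers, from which the 10 genes were left out, held 1 call. Kcnj8, a potassium channel subunit of pericytes, rose in IKK2-CApdx-1 islets against control. It read 6.91, 6.76, 6.89, 6.51 and 7.16 on the IKK2-CApdx-1 arrays, 6.53, 6.59, 6.54 and 6.27 on the Pdx-1+/- arrays, and 6.20, 6.31, 6.41, 6.27 and 6.37 on the control arrays. Every IKK2-CApdx-1 array was above every control array, as was the case for 1.86% of all genes. The Pdx-1+/- arrays overlapped with both groups, array 4 being within the control range.

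The difference of Kcnj8 against control was 0.53 log2 (SE 0.10, 1.45-fold; limma adjusted p = 0.0192), and against Pdx-1+/- it was 0.36 (SE 0.11; adjusted p = 0.388). It held without Pdx-1+/- array 4 and IKK2-CApdx-1 array 5 (0.45 log2, adjusted p = 0.0169) and with control array 3 out as well (0.48, adjusted p = 0.0313), but not without IKK2-CApdx-1 array 3, control array 1 or control array 4 (adjusted p = 0.0511, 0.0512 and 0.0586). Of the 17, 13 were positive against control (median 0.24 log2, limma, 1 called) and 11 against Pdx-1+/- (median 0.14, 0 called). Over the whole list the mean ran from 0.04 to 0.23 on IKK2-CApdx-1 arrays. It ran from −0.17 to 0.065 on Pdx-1+/- arrays and from −0.15 to 0.03 on control arrays. IKK2-CApdx-1 and control did not overlap, by a narrow margin (lowest 0.0435 against highest 0.0263). The list includes Kcnj8, and the share of gene lists that separate in this way was not worked out. Rgs5 and Cspg4, the usual pericyte markers, overlapped between all groups, with Rgs5 from 8.04 to 8.84 in IKK2-CApdx-1 islets, 7.46 to 8.13 in Pdx-1+/- islets and 7.15 to 8.57 in control islets.

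**Figure D4:**
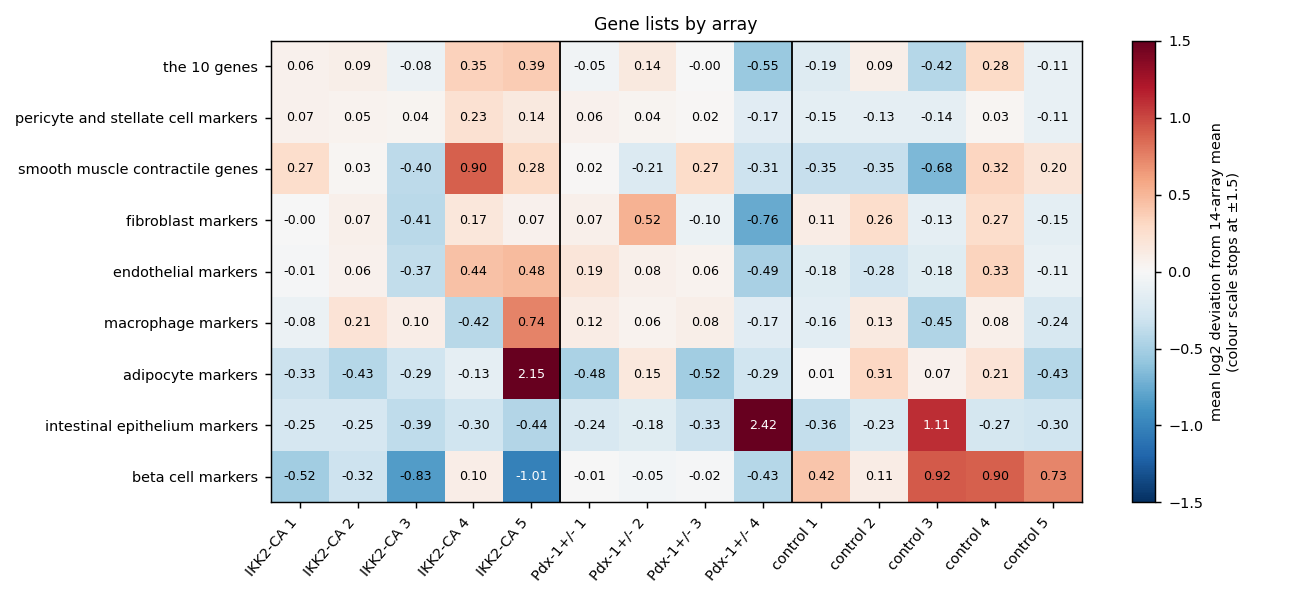
Mean log2 deviation from the 14-array mean (colour and number; the colour scale stops at ±1.5) of the 10 genes and of 8 other gene lists on each array, with IKK2-CA standing for IKK2-CApdx-1. The 10 genes are lowest on Pdx-1+/- array 4 and control array 3, where intestinal markers are at 2.42 and 1.11, and the pericyte and stellate cell markers separate IKK2-CApdx-1 from control arrays by a small margin.

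Other collagens gave 1 call. Col6a6, a further chain of type VI collagen, fell in IKK2-CApdx-1 islets against control, at 7.72, 7.64, 7.39, 7.69 and 7.18 on the IKK2-CApdx-1 arrays, with 7.78, 8.10, 8.14 and 7.86 on the Pdx-1+/- arrays and 7.81, 7.92, 8.38, 8.42 and 8.0 on the control arrays. All IKK2-CApdx-1 arrays lay below all arrays of the other groups, which overlapped with each other. Groups separated downward for 0.712% of all genes against Pdx-1+/- and 2.34% against control. The difference of Col6a6 against control was −0.58 log2 (SE 0.14, limma adjusted p = 0.0438). It was not called without IKK2-CApdx-1 array 5 and Pdx-1+/- array 4 (−0.50, adjusted p = 0.0723) or with control array 3 out too (−0.43, adjusted p = 0.178). The other 17 of 18 network and fibril-associated collagens were not called in that comparison, nor were the 8 other fibrillar collagens, which had medians of −0.00064, 0.03 and 0.05 log2 in IKK2-CApdx-1 against Pdx-1+/-, IKK2-CApdx-1 against control and Pdx-1+/- against control. Col5a2, a type V chain that regulates fibril width, was at 0.11 log2 in IKK2-CApdx-1 against control (SE 0.10; limma adjusted p = 0.697).

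No gene of the machinery that modifies collagen, or of the rest of the matrix, was called with all 14 arrays. Of 24 enzymes and chaperones measured, 11 were positive in IKK2-CApdx-1 against control (median −0.03 log2), and Bmp1, the protease that trims procollagen, was at −0.55 (SE 0.16; limma adjusted p = 0.0958). Its mean was 8.94 ± 0.25 in IKK2-CApdx-1 islets (SD, n = 5), against 9.50 ± 0.11 in control islets (SD, n = 5). Bmp1 was called without Pdx-1+/- array 4 (limma adjusted p = 0.0166) and without that array and IKK2-CApdx-1 array 5 (−0.53 log2, adjusted p = 0.0315). With control array 3 out as well it was not called. Nor was it called without IKK2-CApdx-1 array 5 alone, with array median centring or with quantile normalization. Of 29 other matrix proteins, 11 were positive against control (median −0.07) and 17 against Pdx-1+/- (median 0.07). Mfap4, a microfibril-associated protein, was at 0.60 log2 against control (SE 0.18; limma adjusted p = 0.10) and 0.68 against Pdx-1+/- (SE 0.19; adjusted p = 0.325). Postn, periostin, was at 0.76 log2 against Pdx-1+/- (SE 0.31; limma adjusted p = 0.647). Without Pdx-1+/- array 4 and IKK2-CApdx-1 array 5, 8 of the 29 were positive against Pdx-1+/- (median −0.22), and 24 of 29 in Pdx-1+/- against control (median 0.15, against −0.12 with all arrays).

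Ligands, receptors and carriers of the growth factor signals were read from lists too. For the TGF-β pathway 31 genes besides Tgfb1 were measured, and 0 were called in any comparison. In IKK2-CApdx-1 islets 21 of them were positive against Pdx-1+/- (median 0.14 log2) and 21 against control (median 0.08). Against Pdx-1+/-, 17 were positive without Pdx-1+/- array 4 (median 0.05) and 17 without that array and IKK2-CApdx-1 array 5 (median 0.01). Pmepa1, a TGF-β-induced inhibitor of the pathway, was at 0.70 against Pdx-1+/- (SE 0.23; limma adjusted p = 0.455), and Itgb8, an integrin chain that helps release active TGF-β, at 0.80 against control (SE 0.29; adjusted p = 0.179). Of 5 genes for PDGF ligands and the partner receptor, 0 were called. Pdgfb, the main ligand of the receptor encoded by Pdgfrb, was at 0.27 log2 against Pdx-1+/- (SE 0.10; limma adjusted p = 0.577) and 0.19 against control (SE 0.09; adjusted p = 0.372), and Pdgfc at 0.52 against control (SE 0.16; adjusted p = 0.117). Of 12 integrins and other receptors for collagen and fibronectin, 8 were positive against control (median 0.10, or 0.02 with 7 positive without the 3 arrays) and 0 were called. Itga4, a chain of the fibronectin and VCAM-1 receptor that leukocytes also carry, was at 0.97 log2 against control (SE 0.25; limma adjusted p = 0.0590), and Itga2, a collagen receptor chain, at 1.15 (SE 0.34; adjusted p = 0.0964). Itga4 was called with array median centring (0.98, limma adjusted p = 0.0474), with quantile normalization (0.99, adjusted p = 0.0419) and without IKK2-CApdx-1 array 5 (0.70, adjusted p = 0.0449). It was also called without Pdx-1+/- array 4 and IKK2-CApdx-1 array 5 together (0.70, limma adjusted p = 0.0329). Itga4 was not called without Pdx-1+/- array 4 alone or without the 3 arrays.

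Fibroblast markers did not go with the pericyte list. Of 14 measured, 3 were positive in IKK2-CApdx-1 against control (median −0.19 log2) and 6 against Pdx-1+/- (median −0.02), with 0 called. S100a4, found in fibroblasts and leukocytes, was at 0.74 against control (SE 0.20; limma adjusted p = 0.0753), and Gsn, gelsolin, at −0.40 (SE 0.25; adjusted p = 0.503). S100a4 was called without Pdx-1+/- array 4 (limma adjusted p = 0.0477) and without that array and IKK2-CApdx-1 array 5 (0.55 log2, adjusted p = 0.0382). With control array 3 out as well it was not called. Nor was it called without IKK2-CApdx-1 array 5 alone, with array median centring or with quantile normalization. In Pdx-1+/- against control 3 of 14 were positive (median −0.13). Without Pdx-1+/- array 4 these were 12 of 14 (median 0.06), and for IKK2-CApdx-1 against Pdx-1+/- 3 of 14 were positive (median −0.22).

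Markers of other cells in the preparation were set beside the 10 genes. Among 9 genes of intestinal or other smooth muscle, which include Des, 8 were positive in IKK2-CApdx-1 against control (median 0.55 log2), and Kcnmb1, a potassium channel subunit of smooth muscle, rose by 1.28 (SE 0.28; limma adjusted p = 0.0327). Its values were 6.15, 6.28, 7.89, 6.88 and 7.29 on the IKK2-CApdx-1 arrays, 5.72, 5.38, 6.05 and 5.48 on the Pdx-1+/- arrays, and 5.46, 5.16, 5.53, 5.96 and 5.97 on the control arrays. All IKK2-CApdx-1 arrays were above all others. Such a separation was found for 1.72% of all genes against Pdx-1+/- and 1.86% against control. IKK2-CApdx-1 array 3, where Kcnmb1 was highest, had the lowest Acta2, Des and Myh11 of its group. The call was not made without any 1 of IKK2-CApdx-1 arrays 3 and 5 or of the 5 control arrays (limma adjusted p from 0.0517 to 0.0965), nor without Pdx-1+/- array 4 and IKK2-CApdx-1 array 5 together (1.19 log2, adjusted p = 0.0588).

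Endothelial markers (14 measured) were positive for 10 in IKK2-CApdx-1 against control (median 0.12 log2), or for 8 without IKK2-CApdx-1 array 5 (median 0.04), and 0 were called. Vwf, the von Willebrand factor of vessel walls and platelets, was at 0.76 log2 (SE 0.20; limma adjusted p = 0.0651), and was called with quantile normalization (0.77, adjusted p = 0.0492). The mean of the endothelial markers ran from −0.37 to 0.48 on IKK2-CApdx-1 arrays, from −0.49 to 0.19 on Pdx-1+/- arrays and from −0.28 to 0.33 on control arrays, lowest on Pdx-1+/- array 4 as the 10 genes were. Among 11 macrophage markers, of which 9 were positive (median 0.10), Mpeg1, a pore-forming protein, rose against control (1.16 log2, SE 0.22; limma adjusted p = 0.0162), and among 7 of mesothelium and lymph node stroma, of which 3 were positive (median −0.06), the chemokine gene Ccl19 (1.49, SE 0.24; adjusted p = 0.00715) and the adhesion molecule gene Madcam1 (2.04, SE 0.43; adjusted p = 0.0242) did. Without IKK2-CApdx-1 array 5, 4 of the 11 macrophage markers were positive (median −0.04). Without the 3 arrays with other tissue signal, 2 of the 7 markers of mesothelium and lymph node stroma were positive (median −0.30). Ccl19 (1.24 log2, limma adjusted p = 0.0127) and Mpeg1 (0.87, adjusted p = 0.00591) were then still called against control, and Madcam1 was not. Mpeg1 was also called against Pdx-1+/- without these 3 arrays (0.87, limma adjusted p = 0.0195). Adipocyte (13), acinar (17), ductal (9), Schwann cell (7) and intestinal (17) markers had 0 calls in any comparison, with medians against control of 0.18, 0.04, 0.02, 0.11 and −0.32 log2 for IKK2-CApdx-1. Without IKK2-CApdx-1 array 5 the adipocyte median was −0.16, with 1 of 13 positive against 10 with all arrays, and the acinar and ductal medians were 0.07 and 0.14. The intestinal median was −0.0050 once control array 3 was left out together with Pdx-1+/- array 4 and IKK2-CApdx-1 array 5. Of 11 β-cell markers 7 fell in IKK2-CApdx-1 against control (median −1.16), and their mean was from −1.01 to 0.10 on IKK2-CApdx-1 arrays, from −0.43 to −0.0077 on Pdx-1+/- arrays and from 0.11 to 0.92 on control arrays. In Pdx-1+/- against control 0 of the 11 were positive (median −0.75 log2), with 0 called, and the 11 include Pdx1 itself. Whether the share of β-cell RNA was lower was not tested. Nor was any part of such a change in the small positive values of mesenchymal genes.

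Pdx-1+/- against control asks what the driver allele alone goes with, and 0 genes of the 20 lists were called there or in IKK2-CApdx-1 against Pdx-1+/- with all 14 arrays. For the 10 genes the differences ran from −0.18 log2 (Fn1, 95% interval −0.67 to 0.32) to 0.26 (Acta2, −0.69 to 1.20), all with a limma adjusted p of 0.999, and 0 of 10 had groups that did not overlap, against 0.481% of all genes higher and 1.4% lower. The intervals of Col1a1 (−0.40 to 0.25) and Col3a1 (−0.42 to 0.32) leave room for a change of about 0.4 log2 downward. By group means, Pdx-1+/- islets were the lowest of the 3 groups for 9 genes and control islets for Acta2, while IKK2-CApdx-1 islets were the highest for 7 and control islets for Col4a1, Col6a1 and Fn1. Of the 10 genes, 0 were called in any comparison. For Tgfb1 the IKK2-CApdx-1 arrays did not overlap with those of either other group. Such groups were found for 1.72% of all genes against Pdx-1+/- and 1.86% against control.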

How the data were processed

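RNA of 14 islet preparations was hybridised to Affymetrix Mouse Gene 1.0 ST arrays. The deposited values are log2 signals that the authors made with the robust multichip average (RMA), per the labels. Affymetrix Expression Console is named, without a version, in the submitters' processing notes. The log base was read from the values. Of 35556 transcript clusters, 21789 with 1 symbol in the array's gene table were used; 1621 with several symbols and 12146 absent from that table were left out. The brightest cluster stood for each of the 999 genes with several, which left 19938 genes, with no filter or further scaling. Limma 3.58.1 (R 4.3.3) estimated the 3 group means together, with 11 residual and 3.46 prior degrees of freedom, Benjamini-Hochberg adjustment over all genes and a threshold of 0.05. The method was tested on simulated data. The number of arrays limits the precision.

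The 10 genes and 20 lists were chosen with earlier results of these data known. The text names all 10 genes and, of each list and comparison, up to 4 calls or else up to 2 genes with the smallest p. The tests of the 10 genes, Col6a6, Kcnj8 and Kcnmb1, and the counts over all genes, were recomputed in every setting. The settings were centring arrays on their medians, quantile normalization, a trended robust eBayes and the compared groups alone. Others were leaving out the lowest 30% of genes, averaging a gene's clusters, weighting arrays and blocking on the replicate number. The last left out each array, and the 2 or 3 arrays with signal of other tissues. The 20 lists and the other genes named from them were recomputed in fewer settings. These were centring, quantile normalization and leaving out the 2 or 3 arrays. Pdx-1+/- array 4 and the IKK2-CApdx-1 array with adipocyte genes were also each left out alone. Correlations are given only over all arrays and without the 3 arrays. Replicate numbers recur across groups, but arrays with the same number did not deviate together (13 pairs, r from −0.391 to 0.356, 2 over 0.1), so no pairing was used. Promoter windows are RefSeq's, build GRCm38.p6.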

Additional observations from a re-analysis of the deposited data

Results flagged for a closer look

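Single arrays far from the rest of their group were sought with Dixon's ratio, the gap to the nearest array divided by the group's range, for 93 combinations of group with gene or list, of which 8 passed the 95% critical value; chance alone gives about 1 in 20. Of the 30 combinations with one of the 10 genes, 1 passed: Des in Pdx-1+/- islets (ratio 0.877), where array 4 read 6.84 against 7.46 to 7.54 on the others.

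The other 7 were mean deviations of lists. On Pdx-1+/- array 4 the intestinal markers were at 2.42 log2 (ratio 0.946) and the β-cell markers at −0.43 (ratio 0.912), against −0.33 to −0.18 and −0.05 to −0.0077 on the other arrays of the group. Control array 3 had intestinal markers at 1.11 (ratio 0.91). On control array 4 the pericyte and stellate cell markers were at 0.03 against −0.15 to −0.11 (ratio 0.767), and endothelial markers at 0.33 against −0.28 to −0.11 (ratio 0.715). Control array 2 had Schwann cell markers at 0.08 (ratio 0.733), and IKK2-CApdx-1 array 5 adipocyte markers at 2.15 (ratio 0.883).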

How the results depend on the processing

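These 14 arrays in 3 groups detect only differences well above the spread between arrays, and every group holds an array with signal of another tissue. Because of this, signs of differences near 0 are not settled. The number of the 10 genes called was 0 in all settings for IKK2-CApdx-1 against Pdx-1+/- and for Pdx-1+/- against control, and for IKK2-CApdx-1 against control it was 1 (Tgfb1) with quantile normalization and array weights, and 0 to 1 with single arrays left out. Tgfb1 stayed positive in every setting of both IKK2-CApdx-1 comparisons.

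Over all genes, 15 were called for IKK2-CApdx-1 against Pdx-1+/-, and 1 with only the 2 groups, 52 with array weights, 9 with the replicate block, 52 without Pdx-1+/- array 4 and IKK2-CApdx-1 array 5, 48 without control array 3 too, and 2 to 66 with single arrays left out. Against control 448 were called, and 241, 1431, 197, 483, 186 and 120 to 980 in the same order. For Pdx-1+/- against control 19 were called, and 73 with array weights, 9 with the block, 11 without the 3 arrays, and 9 to 48 with single arrays left out. The replicate block changed no call of the 10 genes and ended that of Col6a6 (adjusted p = 0.0809); quantile normalization did too (0.0694), and only the 2 groups (0.0755), which also ended that of Kcnmb1 (0.0657). Same-number arrays share only a number.

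Of the 10 genes, the number positive for IKK2-CApdx-1 against Pdx-1+/- was 10, and 7 with array weights, 6 without the 2 arrays, 6 without the 3, and 7 to 10 with single arrays left out. Against control it was 7, 10 with array weights, 6 without the 3 arrays, and 6 to 10. For Pdx-1+/- against control it was 1, and 2 with centring, 4 with quantile normalization, 9 with array weights, 3 with the block, 9 without the 2 arrays, 5 without the 3, and 0 to 9. The cause of these moves was not tested.

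Signs turned as follows (log2). For IKK2-CApdx-1 against Pdx-1+/-, Col4a1 was −0.00029 with array weights and −0.11 without the 2 or 3 arrays; Col6a1 was −0.0022 with centring, −0.016 with quantile normalization, −0.11 with weights and −0.19 without the 2 or 3 arrays. Fn1 was −0.04 with weights and −0.14 without the arrays, and Pdgfrb −0.019. For IKK2-CApdx-1 against control, Col1a2 was −0.046 without the 3 arrays, and weights gave 0.047 for Col4a1, 0.055 for Col6a1 and 0.019 for Fn1.

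For Pdx-1+/- against control, weights gave 0.048 for Col1a1, 0.022 for Col1a2, 0.14 for Col3a1, 0.048 for Col4a1, 0.17 for Col6a1, 0.061 for Fn1, 0.092 for Pdgfrb and 0.062 for Des. Without the 2 arrays they were 0.054, 0.014, 0.17, 0.015, 0.18, 0.035, 0.13 and 0.12 in the same order. Without the 3 arrays Col3a1 was 0.11, Col4a1 0.0056, Col6a1 0.15 and Pdgfrb 0.13. Quantile normalization gave 2.2e-05 for Col3a1, 0.0074 for Col6a1 and 0.027 for Tgfb1, centring 0.0094 for Tgfb1, and the block 0.019 for Des and 0.072 for Tgfb1.

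With single arrays left out, the differences for IKK2-CApdx-1 against Pdx-1+/- ran from 0.14 to 0.35 for Col1a1, 0.023 to 0.28 for Col1a2, 0.0064 to 0.34 for Col3a1, −0.084 to 0.18 for Col4a1, −0.21 to 0.19 for Col6a1, −0.068 to 0.29 for Fn1, 0.089 to 0.45 for Pdgfrb, 0.19 to 0.74 for Acta2, 0.32 to 0.69 for Des and 0.48 to 0.76 for Tgfb1. Against control they ran from 0.12 to 0.28, −0.026 to 0.13, 0.12 to 0.26, −0.13 to 0.026, −0.076 to 0.031, −0.18 to 0.081, 0.11 to 0.31, 0.41 to 1.00, 0.27 to 0.64 and 0.47 to 0.75 in the same order. For Pdx-1+/- against control they ran from −0.16 to 0.054, −0.24 to 0.014, −0.16 to 0.17, −0.25 to 0.015, −0.22 to 0.18, −0.32 to 0.035, −0.23 to 0.13, −0.042 to 0.49, −0.20 to 0.12 and −0.063 to 0.035. Col6a6, Kcnj8 and Kcnmb1 against control ran from −0.66 to −0.50, 0.45 to 0.61 and 1.03 to 1.47.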
